A study of Mus musculus with 30 samples.

Results

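The 98 genes described here carry symbols of subunits of the 5 complexes of oxidative phosphorylation or of the electron carrier cytochrome c. They were taken by gene symbol out of the 49315 genes of the count table, and pseudogene symbols and the Ndufaf assembly factors were left out. Membership rests on the symbol alone, so Cox7a2l, known for joining complexes III and IV, is counted in complex IV. Of the 98, 85 are nuclear genes and 13 are the protein-coding genes of mitochondrial DNA (mtDNA). The nuclear genes divide into 35 for complex I, 4 for complex II, 9 for complex III, 20 for complex IV, 16 for complex V and Cycs, the carrier. The mtDNA genes divide into 7 for complex I, 1 for complex III, 3 for complex IV and 2 for complex V.

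RNA was sequenced from 30 libraries of 4T1-tdTomato, a single line of mouse mammary carcinoma cells, derived from BALB/c and marked with a red fluorescent protein. All libraries came from viable cells sorted by flow cytometry as DAPI-, CD45- and tdTomato+ from female mice, and each of the 6 groups held 5 libraries. The hosts were BALB/c mice, which have a full immune system, or NSG mice, which lack T, B and NK cells. BALB/c tumour and NSG tumour libraries followed injection of 200000 cells into the mammary fat pad and were collected at day 21 or 22 and at day 10. The lung groups followed injection of 500000 cells into the tail vein. BALB/c DTC and NSG DTC libraries (DTC, a label the sources used here do not spell out) were collected from lung at day 7. BALB/c macro-met libraries were collected from lung at day 21 or 23, and NSG macro-met libraries at day 19 or 20. Tumour and lung groups differ at once in organ, injection route and number of cells, and these cannot be told apart. Days of collection differed as well. Tumours were collected at day 21 or 22 in BALB/c and at day 10 in NSG hosts, against day 7 for DTC libraries of both. A difference between hosts in a step from tumour therefore cannot be told apart from one of tumour day. Whether the libraries of a group came from separate mice is not said in the labels, so p-values measure the spread between these samples, which may be technical in part. In bulk RNA, fewer cells of a kind and less RNA per cell cannot be told apart.

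Complexes I and II pass electrons from NADH and succinate to ubiquinone, complex III passes them on to cytochrome c, and complex IV hands them to oxygen. Complexes I, III and IV pump protons as they do so, and complex V, the ATP synthase, uses the return of the protons to make ATP. Most subunits are made in the cytosol from nuclear genes and imported. A small set is made inside mitochondria from mRNAs cut out of long mtDNA transcripts, so that complexes I, III, IV and V need both genomes, while complex II is nuclear throughout.

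A stretch of mouse chromosome 1 (chr1:24611535-24616197 of GRCm38, minus strand) carries near-identical copies of 7 of the mtDNA genes, annotated as pseudogenes. Bases are shown here because such copies can limit which mtDNA mRNAs are counted. Whether they account for the low counts below was not tested. The copy of mt-Nd3, which encodes a membrane subunit of complex I, matched it over 345 bases with the single substitution T3C, and the copy of mt-Co1, the catalytic subunit of complex IV, matched its last 483 bases with the single substitution A1066T. Positions count from 1 at the mRNA's 5′ end, the mtDNA base stands first, and capitals mark the base that differs. The mtDNA stretches lie on the plus strand at chrM:9459-9481 and chrM:6390-6413.
mt-Nd3: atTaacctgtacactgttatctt
Gm28438, the copy of mt-Nd3: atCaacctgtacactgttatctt
mt-Co1: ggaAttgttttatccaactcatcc
Gm29216, the copy of mt-Co1: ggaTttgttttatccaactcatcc
The 6 mRNAs between chrM:7013 and chrM:10173 were almost uncounted. Median counts per library were 22 for mt-Co2, 3 for mt-Atp8, 23 for mt-Atp6, 29 for mt-Co3, 54 for mt-Nd3 and 19 for mt-Nd4l. The other 7 had medians from 2311 for mt-Nd6 to 321822 for mt-Co1. Copies of mt-Co2, mt-Atp6, mt-Co3 and mt-Nd4l matched over 294 to 783 bases with 0 mismatches. Only annotated pseudogene transcripts were searched, and none of them matched mt-Atp8. Genome sequence outside these transcripts was not searched, so a copy of mt-Atp8 there would be missed. This includes the stretch between the copies of mt-Co2 (from chr1:24614885) and mt-Atp6 (to chr1:24614651). The longest copy without a mismatch, Gm28439, matched the first 876 of the 1378 bases of mt-Nd4, which had a median of 18734 counts against 7 for the copy, and its part in the mt-Nd4 counts was not tested. The copies had few counts too, with medians from 4 to 293, the highest being for Gm28438. Reads that fit several places equally could not be assigned by sequence, and how they were counted is not given in the sources used here. Levels of these 6 mRNAs are therefore not read as expression. They stay in the counts over all 13 mtDNA mRNAs below, where the number among the 7 well counted ones is given beside.

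**Figure D1:**
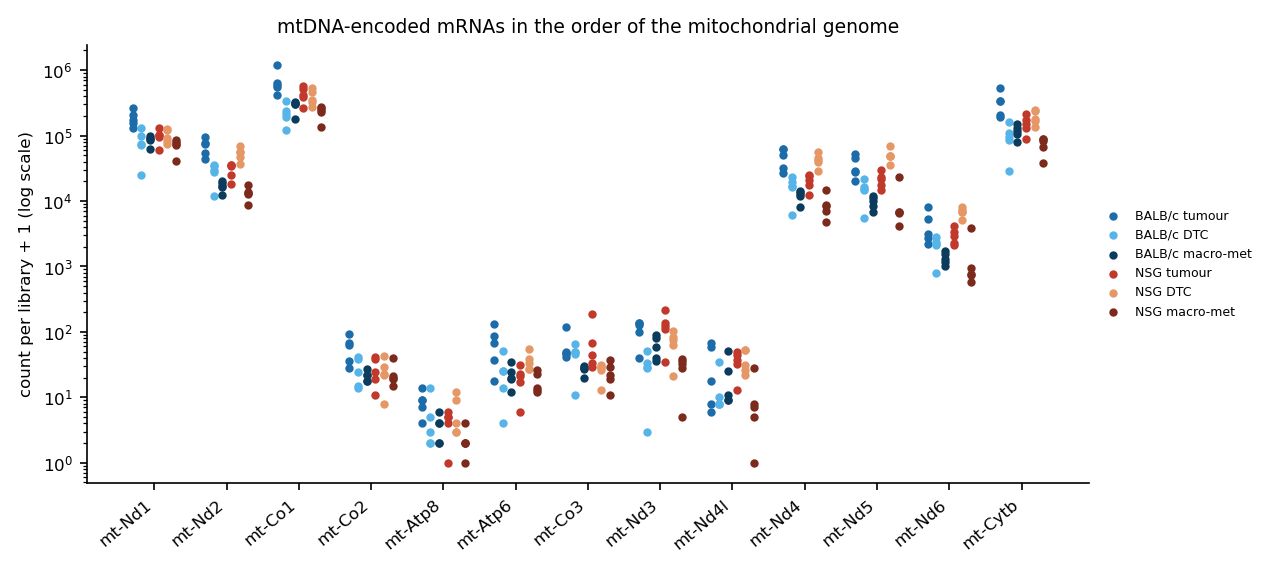
Counts plus 1, on a log scale, of the 13 protein-coding mtDNA genes in their order on mtDNA, 1 point per library, coloured by group. The 6 neighbouring genes mt-Co2 to mt-Nd4l sit far below the 7 others in every group.

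Promoters of the nuclear members are shown because the nuclear genes of all 5 complexes were called together in several comparisons. RefSeq promoter windows of GRCm38.p6, from 250 bases before to 50 after the start, matched 67 of the 85 nuclear members by symbol. The letters GCATGCGC, the core recognised by NRF1, a transcription factor known for respiratory chain promoters, were found on either strand in 11 of the 67 (16.4%) and in 689 of 17492 genes with a window (3.9%). The 4 stretches below are each the 120 bases before the RefSeq start. They belong to members that carry these letters and were called higher in BALB/c DTC than in BALB/c tumour libraries. Not every member with the letters was called higher. Capitals mark GCATGCGC, which occurs on both strands with overlap in Atp5k and Atp5g2. The stretches are chr6:50566570-50566689 (minus strand) for Cycs, chr4:140961151-140961270 (plus) for Sdhb, chr5:108434400-108434519 (minus) for Atp5k and chr15:102671048-102671167 (minus) for Atp5g2. Gene positions elsewhere in this text are from GENCODE M21, whose starts differ. By these the Atp5g2 stretch lies inside the gene, which begins at chr15:102672352. The stretches of Sdhb (from chr4:140961203) and Atp5k (from chr5:108434448) lie partly inside.
Cycs: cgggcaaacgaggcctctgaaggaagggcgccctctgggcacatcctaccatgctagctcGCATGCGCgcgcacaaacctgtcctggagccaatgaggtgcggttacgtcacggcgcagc
Sdhb: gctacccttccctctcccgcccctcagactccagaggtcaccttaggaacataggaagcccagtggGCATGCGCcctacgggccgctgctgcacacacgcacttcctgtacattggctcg
Atp5k: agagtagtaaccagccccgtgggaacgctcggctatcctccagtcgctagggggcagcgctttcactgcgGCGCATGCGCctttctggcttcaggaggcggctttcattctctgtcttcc
Atp5g2: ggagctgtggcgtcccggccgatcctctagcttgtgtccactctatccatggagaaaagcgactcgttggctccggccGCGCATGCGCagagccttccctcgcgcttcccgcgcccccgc
Further motifs were searched on both strands in the same windows. AAGATGGCG (YY1) was in 10.4% of members and 2.1% of genes, CCGGAAG (GABPA) in 23.9% and 12.9%, AAGGTCA (ERRA) in 11.9% and 4.7%, and ACGTG (the core for HIF1) in 25.4% and 23.2%. A match is a description of letters, not a binding site. Among tested members, those with GCATGCGC had a median log2 fold change of 0.32 from BALB/c tumour to BALB/c DTC, with 7 of 11 called higher, and those without it had a median of 0.28, with 24 of 54 called higher. Of all genes tested, 20.4% were called higher in this comparison. Whether the letters bear on the change was not tested.

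Libraries held 29832098 to 65621525 counts. The epithelial genes Epcam (132 to 748 CPM, counts scaled to library size), Krt8 (1630 to 4590 CPM) and Krt18 (1270 to 2930 CPM) were high in every library, and the leukocyte gene Ptprc, which encodes CD45, was at 0.0369 to 6.62 CPM. RNA of lung cells was present in lung libraries. The summed level of 10 lung epithelial genes was 3380 and 1440 CPM in BALB/c DTC replicates 1 and 2, 69 to 194 CPM in the other 3, 17.7 to 52 CPM in NSG DTC, 9.04 to 67.8 CPM in macro-mets of both hosts and at most 5.08 CPM in tumours. In tumours 1 of the 10, Scgb3a2, was at 0 in every library, and Ager had means of 0.466 CPM in BALB/c and 0.819 CPM in NSG hosts. Genes detected ran from 17517 in BALB/c tumour replicate 4 to 22187 in an NSG DTC library. BALB/c tumour replicate 4 also had 831 CPM of summed skeletal muscle genes against 43.6 to 58.4 CPM in the other 4. In NSG DTC libraries, the departure of genes from their all-library mean fell with GC content (Spearman's rho across genes -0.613 to -0.328). It also fell in BALB/c tumours (-0.276 to -0.106), and in NSG tumours rho ran from -0.204 to 0.033. Macro-mets had positive values, 0.053 to 0.402 in BALB/c and 0.197 to 0.414 in NSG hosts. BALB/c DTC libraries ran from -0.101 to 0.455.

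Nuclear subunit mRNAs were highest in BALB/c DTC libraries and mtDNA mRNAs were highest in BALB/c tumours. Summed over the 85 nuclear members in TPM (transcript counts scaled by gene length and library), the level in BALB/c hosts was 17546 ± 869 (SD, n = 5) for tumour, 21185 ± 980 for DTC and 18272 ± 991 for macro-met libraries. In NSG hosts it was 17926 ± 720, 18003 ± 1177 and 18177 ± 738 in the same order. The 5 BALB/c DTC sums, from 20210 to 22551, lay above all 25 other libraries, the highest of which was 19470. The summed TPM of the 7 well counted mtDNA mRNAs was 52464 ± 13416 in BALB/c tumour, 24075 ± 11505 in BALB/c DTC, 21981 ± 2198 in BALB/c macro-met, 32130 ± 3869 in NSG tumour, 37354 ± 5670 in NSG DTC and 17784 ± 3258 in NSG macro-met libraries. The ratio of mtDNA to nuclear sums thus ran from 3.01 ± 0.881 in BALB/c tumour to 0.981 ± 0.193 in NSG macro-met libraries. Within BALB/c DTC libraries it ran from 0.33 in replicate 5 to 1.86.

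**Figure D2:**
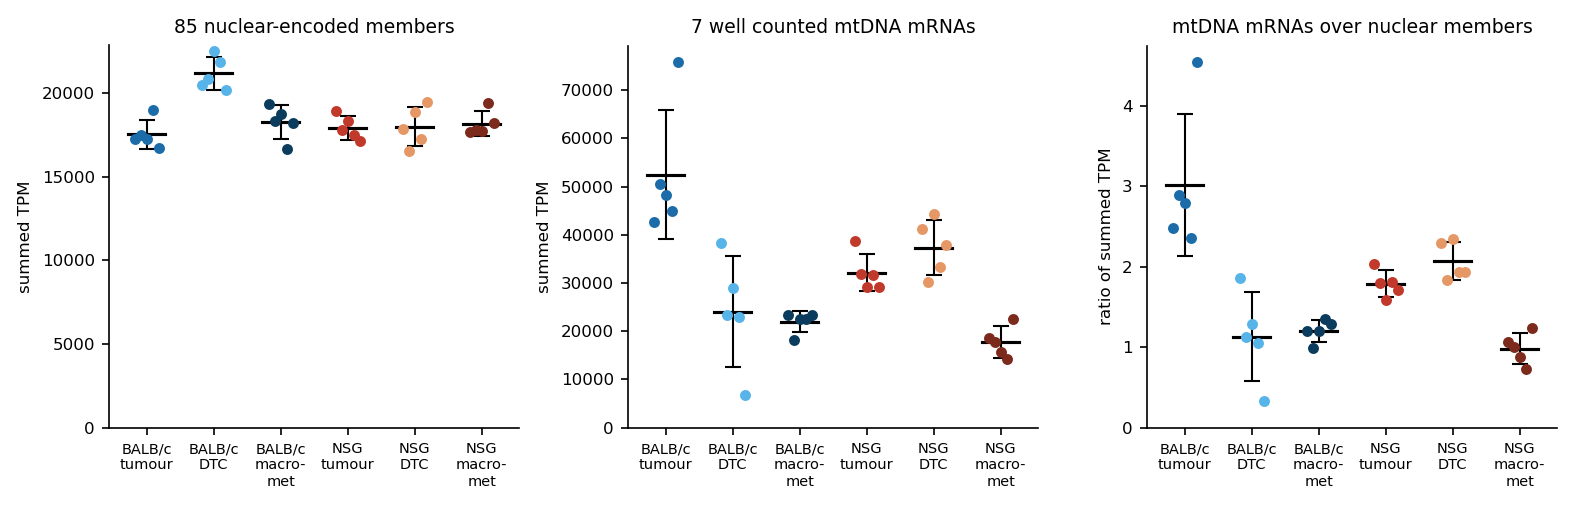
Summed TPM of the 85 nuclear members, summed TPM of the 7 well counted mtDNA mRNAs, and the ratio of the latter to the former, 1 point per library with mean ± SD (n = 5) for each of the 6 groups. BALB/c DTC libraries are the highest for the nuclear sum (20210 to 22551) and spread widely for the mtDNA sum (6670 to 38243).

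Each complex had its own level and order. Nuclear complex I summed to 5703 ± 315 TPM in BALB/c tumour, 6659 ± 328 in BALB/c DTC, 6060 ± 312 in BALB/c macro-met, 5526 ± 296 in NSG tumour, 5648 ± 424 in NSG DTC and 5972 ± 317 in NSG macro-met libraries. The other nuclear sums, in the same order of groups, were 576 ± 36.6, 736 ± 70.6, 724 ± 27.8, 672 ± 27.1, 732 ± 25.4 and 757 ± 22.1 TPM for complex II. For complex III they were 1823 ± 212, 2345 ± 194, 1829 ± 129, 1808 ± 105, 1834 ± 137 and 1795 ± 62.7 TPM. Complex II was the one nuclear complex whose highest mean was not in BALB/c DTC libraries. Nuclear complex IV summed to 5538 ± 307, 6528 ± 488, 5356 ± 398, 5413 ± 293, 5331 ± 424 and 5306 ± 252 TPM. Complex V summed to 3851 ± 134, 4799 ± 252, 4238 ± 176, 4438 ± 68.7, 4365 ± 215 and 4288 ± 122 TPM. For complexes III and IV the 5 groups other than BALB/c DTC did not differ from each other beyond their spread.

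The mtDNA mRNAs were the highest single members per length. The median over groups of the mean level was 12207 TPM for mt-Co1, 6512 TPM for mt-Cytb, the catalytic subunit of complex III, and 5675 TPM for mt-Nd1, a core membrane subunit of complex I. Among nuclear members it was 1154 TPM for Cox6a1, 1016 TPM for Cox4i1 and 1005 TPM for Atp5b. Summed mtDNA complex I mRNAs, to which the uncounted mt-Nd3 and mt-Nd4l add little, were at 16381 ± 2474 TPM in BALB/c tumour, 9007 ± 4368 in BALB/c DTC, 6628 ± 692 in BALB/c macro-met, 9184 ± 1241 in NSG tumour, 13144 ± 1660 in NSG DTC and 5720 ± 913 in NSG macro-met libraries. The single mtDNA gene of complex III, mt-Cytb, was at 13974 ± 4329, 5644 ± 3034, 5487 ± 872, 7380 ± 1431, 9693 ± 1479 and 3683 ± 1053 TPM in that order. For complex IV, mt-Co1 was at 22130 ± 7126, 9431 ± 4142, 9879 ± 906, 15590 ± 1303, 14535 ± 2594 and 8387 ± 1381 TPM, and complex V has no well counted mtDNA mRNA. In both hosts the macro-met means lay below the tumour means in these 3 complexes. NSG DTC means were above those of NSG tumours in mtDNA complex I and III and below them in complex IV. The complex IV difference was within the spread, and mt-Cytb of complex III overlapped between the groups and was not called.

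In BALB/c hosts, cells in the lung at day 7 had more nuclear subunit mRNA of every complex, and less mtDNA mRNA, than mammary tumours. A gene was called where the edgeR quasi-likelihood test gave an adjusted p under 0.05. By that rule 39 of the 82 nuclear members that passed the filter on low counts were called higher and 3 lower. Over all 17774 genes tested, 20.4% were called higher and 21.0% lower, and the median log2 fold change was 0.28 for these members against -0.091 for all genes. The 9 tested lung epithelial markers, the 10 endothelial markers and 3 of 5 red cell markers were called higher as well, and 6 of 7 fibroblast and 4 of 9 skeletal muscle markers lower. Without BALB/c DTC replicates 1 and 2, which held most lung RNA, 40 nuclear members were called higher and 3 lower, and the part of the lung RNA in the other 3 DTC libraries was not tested.

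By complex, 13 of 35 tested complex I genes were called higher, 4 of 4 of complex II, 5 of 9 of complex III, 7 of 17 of complex IV and 9 of 16 of complex V. Median log2 fold changes were 0.26, 0.36, 0.42, 0.20 and 0.30 in that order. Cycs (chr6:50562563-50566538, minus strand of GRCm38), which encodes the somatic cytochrome c that shuttles between complexes III and IV, was at 66.4, 58.2, 77.4, 90.6 and 66.2 CPM in BALB/c tumour and at 161, 138, 168, 179 and 134 CPM in BALB/c DTC libraries. Every DTC library lay above every tumour, and the log2 fold change was 1.12 ± 0.12 (SE, adjusted p = 7.71e-09). Cyc1 (chr15:76343523-76346260, plus strand), the cytochrome c1 of complex III, was at 83.4, 80.4, 82.5, 74.6 and 67.3 CPM in tumour and at 139, 133, 148, 158 and 143 CPM in DTC libraries. These groups did not overlap either, and the change was 0.89 ± 0.09 (adjusted p = 8.6e-09). Both calls held under every alternative run.

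Catalytic and core subunits were among the genes called higher. Ndufv1, which binds the NADH and the flavin of complex I, was at 172, 167, 153, 169 and 150 CPM in tumour and 209, 236, 249, 259 and 254 CPM in DTC libraries. The groups were apart, and Ndufv1 rose by 0.58 ± 0.11 on the log2 scale (adjusted p = 6.64e-05). Atp5b (chr10:128083273-128090391, plus strand), the catalytic beta subunit of ATP synthase, was at 1326, 1177, 1465, 1179 and 1131 CPM and then at 1549, 1857, 1998, 1838 and 2226 CPM. It rose by 0.59 ± 0.09 (adjusted p = 5.58e-06) without overlap, and Atp5g1, a gene for the c subunit of the rotor, rose by 0.60 ± 0.10 (adjusted p = 2.57e-05) from 115 to 135 CPM in tumours to 159 to 228 CPM in DTC libraries. Sdhb, the iron-sulfur subunit of complex II, was at 125, 88.6, 147, 156 and 92.5 CPM in tumour and 175, 170, 182, 189 and 160 CPM in DTC libraries. Its lowest DTC library was just above its highest tumour (log2 fold change 0.52 ± 0.13, adjusted p = 0.00145), and with offsets for GC content and length the change was 0.32 (adjusted p = 0.0752). Of other members, Uqcrc1, a core protein of complex III, rose by 0.55 ± 0.10 (adjusted p = 8.89e-05), Cox6a1 of complex IV by 0.55 ± 0.10 (6.92e-05) and the accessory complex I gene Ndufb8 by 0.64 ± 0.11 (3.29e-05).

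Against this direction, 3 nuclear members were called lower in BALB/c DTC than in BALB/c tumour libraries. Cox7a2l (chr17:83501918-83517330, minus strand), known for joining complexes III and IV into supercomplexes, was at 248, 220, 228, 274 and 268 CPM in tumour and 149, 148, 152, 151 and 167 CPM in DTC libraries. It fell by 0.69 on the log2 scale (SE 0.11, adjusted p = 1.11e-05) with no overlap. Ndufv3 (chr17:31520115-31531331, plus strand), an accessory subunit of the NADH-binding module of complex I, was at 54.7, 48.1, 65, 62.2 and 44.9 CPM and then at 35.9, 37, 41.9, 41 and 34 CPM. It fell by 0.53 (SE 0.13, adjusted p = 0.00193), again without overlap, and both calls held under every alternative. The third, Uqcrh, the hinge protein of complex III, was at 66.8, 65.8, 83.8, 121 and 71.4 CPM in tumour and 52.9 to 69 CPM in DTC libraries (log2 fold change -0.38 ± 0.14, adjusted p = 0.031). Without BALB/c tumour replicate 4, the highest library, the Uqcrh change was -0.23 (adjusted p = 0.117).

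The mtDNA mRNAs moved the other way in the same cells. Of the 13, 0 were called higher and 7 lower, against 20.4% and 21.0% of all genes. Of those lower, 6 were among the 7 well counted ones, whose median log2 fold change was -0.86. mt-Cytb was at 4994, 6100, 5827, 4483 and 8759 CPM in tumour and 4097, 2354, 3166, 2427 and 500 CPM in DTC libraries, and mt-Cytb fell by 1.27 (SE 0.31, adjusted p = 0.00152). mt-Co1 was at 9595, 10132, 12550, 13077 and 19690 CPM and then at 8693, 5337, 6806, 5407 and 2059 CPM, a fall of 1.20 (SE 0.23, adjusted p = 0.000144). In both, all DTC libraries were below all tumours, replicate 5 of the DTC group was far the lowest, and replicate 5 of the tumour group was the highest. For mt-Nd4 and mt-Nd2 of complex I, the changes were -1.06 ± 0.26 (adjusted p = 0.00156) and -0.86 ± 0.23 (adjusted p = 0.00379). These calls depend on whether the GC content and length of genes are adjusted for. With offsets for GC content and length, 2 of the 13 were called lower, the median of the 13 was -0.02, mt-Nd4 stood at -0.05 (adjusted p = 0.788) and mt-Nd2 at 0.17 (adjusted p = 0.342). Without BALB/c tumour replicate 5, 4 of the 13 were called. The 7 well counted mRNAs are 34.1% to 39.9% GC, against a median of 50.1% over all tested genes. BALB/c tumour replicate 5 had a rho with GC content of -0.276, the lowest of its group. BALB/c DTC replicate 5 had 0.455, the highest of its group. The part of this trend in the mtDNA result was not tested.

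**Figure D3:**
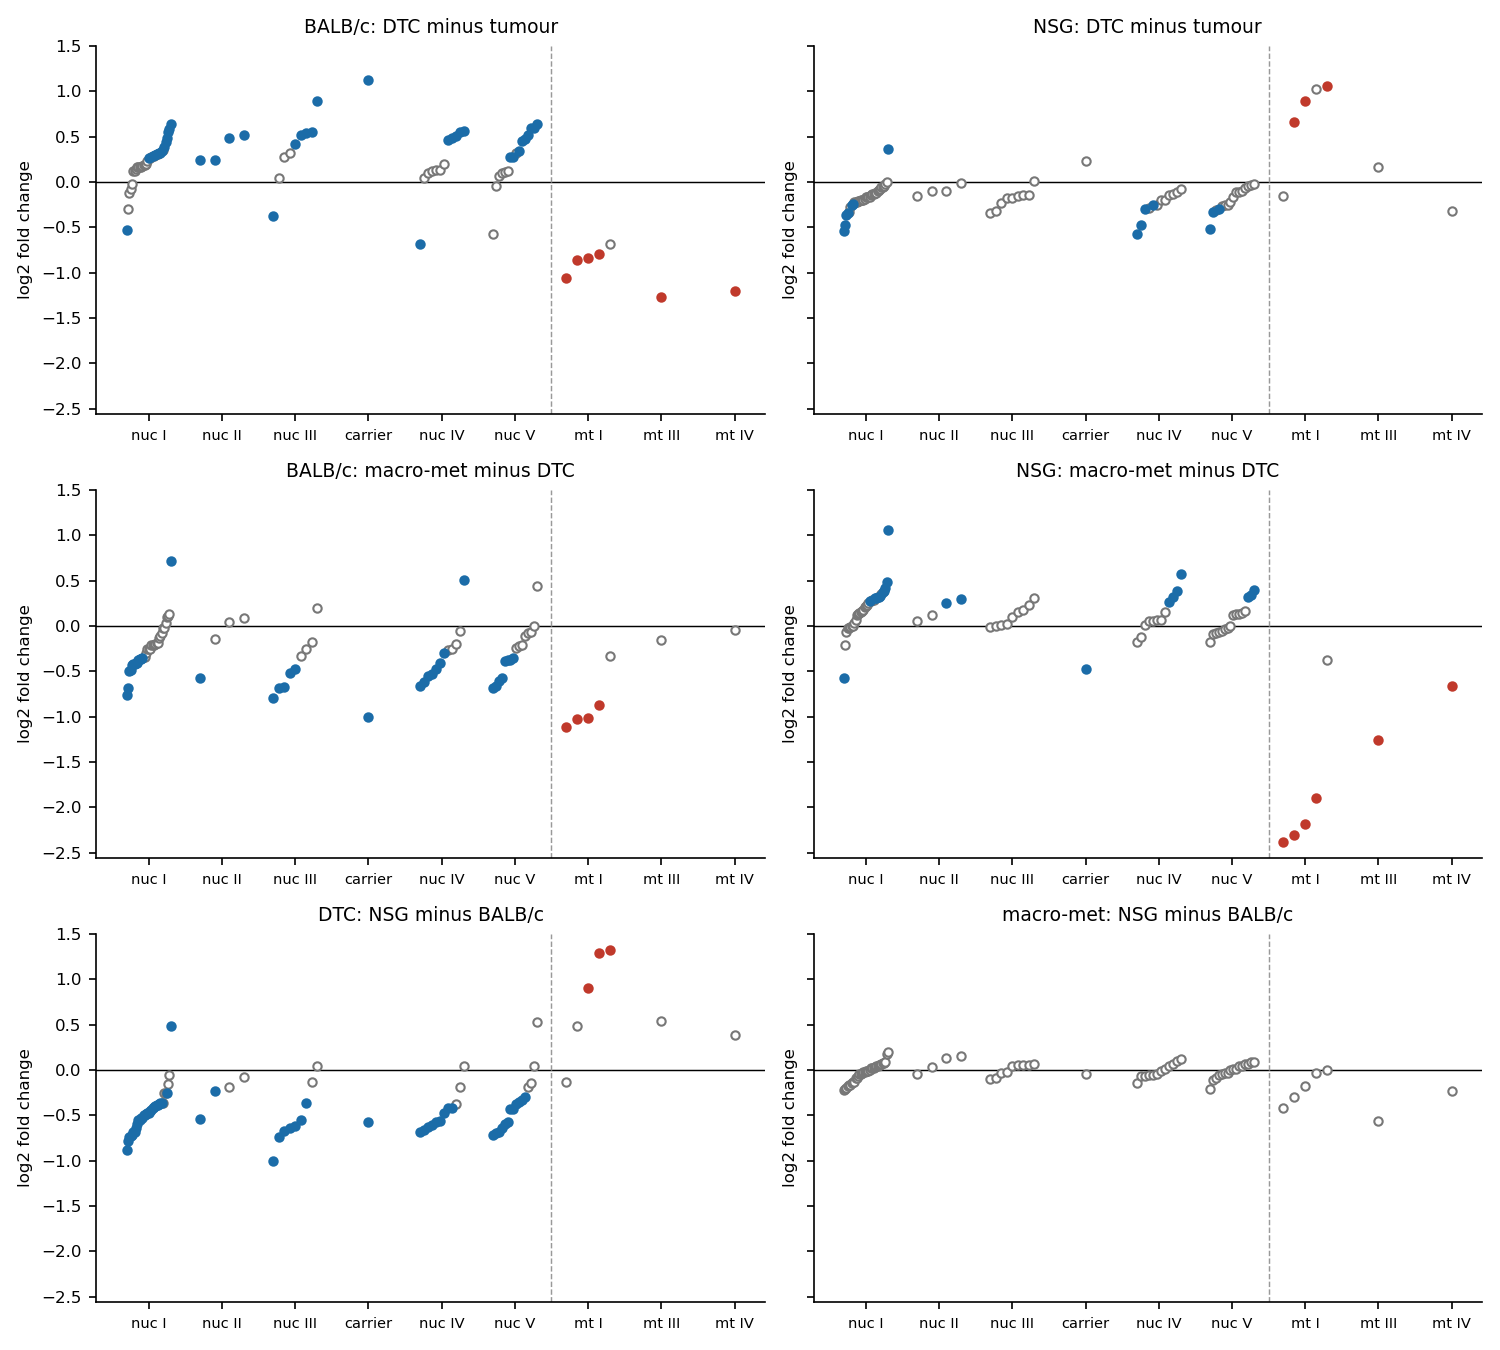
Log2 fold change of members by complex in 6 comparisons, filled where called by edgeR and open where not, nuclear genes in blue and mtDNA genes in red, with 11 members of very low counts left out. In BALB/c DTC minus BALB/c tumour the nuclear genes lie mostly above 0 (median 0.28 over the 82 tested) and the mtDNA genes below.

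In NSG hosts the step from tumour to DTC was different. Of 82 nuclear members, 1 was called higher and 13 lower, where 16.0% of all genes were called higher and 9.55% lower. Their median log2 fold change was -0.17, against 0.057 for all genes, and 75 of the 82 had a negative value. The genes called lower were 6 of complex I, 4 of complex IV and 3 of complex V. Markers of other cells moved in the same step, with 7 of 9 lung epithelial, 8 of 10 endothelial and 4 of 5 red cell genes called higher and 4 of 7 fibroblast genes lower. Summed endothelial markers were at 7.76 to 20.8 CPM in NSG tumour and 50.2 to 73.7 CPM in NSG DTC libraries, and fibroblast markers at 253 to 358 and 146 to 200 CPM. Their part in the result was not tested. On deposited TPM values 2 were called higher and 3 lower, with a median of 0.04, and with offsets for GC content and length 0 were called higher and 27 lower, with a median of -0.25, so the count and the median's sign depend on the scaling. The count was 8, 9 and 9 without NSG tumour replicate 1, NSG tumour replicate 3 or NSG DTC replicate 2, and 27 without NSG DTC replicate 5. The TPM scale moved the all-gene median to 0.174 in this comparison.

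Cox7a2l and Ndufv3, called lower in DTC libraries of BALB/c hosts, were called lower here too. Cox7a2l was at 264, 194, 278, 228 and 206 CPM in NSG tumour and 171, 125, 182, 144 and 166 CPM in NSG DTC libraries, a fall of 0.57 (SE 0.11, adjusted p = 0.00033). Ndufv3 was at 49, 38.1, 50.6, 39 and 37.6 CPM and then at 31.2, 24.8, 27.2, 27.9 and 36.8 CPM, a fall of 0.54 (SE 0.13, adjusted p = 0.00352). Neither gene's groups overlapped, and both calls held under every alternative. Tests of a difference between hosts in this step gave an adjusted p of 0.598 for Cox7a2l (difference 0.12 ± 0.16) and 0.998 for Ndufv3. Atp5b, called higher in BALB/c DTC, was at 1837, 1780, 1749, 1754 and 1713 CPM in NSG tumour and 1394, 1323, 1297, 1447 and 1565 CPM in NSG DTC libraries. All NSG DTC libraries were lower (log2 fold change -0.33 ± 0.09, adjusted p = 0.0071), while limma on log2(TPM + 1) gave -0.11 (adjusted p = 0.252). Atp5d, the delta subunit of the ATP synthase stalk, also fell, by 0.52 (SE 0.10, adjusted p = 0.000176), from 182 to 214 CPM to 131 to 151 CPM.

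Ndufs1, the largest core subunit of complex I, was the single nuclear member called higher in NSG DTC libraries. It (chr1:63143596-63176833, minus strand) was at 82, 83, 68.5, 74.3 and 74.5 CPM in NSG tumour and 96.9, 98.7, 106, 92.6 and 96.5 CPM in NSG DTC libraries, which did not overlap (log2 fold change 0.36 ± 0.09, adjusted p = 0.0051). With offsets for GC content and length the Ndufs1 change was -0.29 (adjusted p = 0.057), and without the 4 libraries with fewest genes detected it was 0.27 (adjusted p = 0.0532). Ndufs1 is 44.4% GC with 8086 exonic bases, while tested nuclear members have medians of 51.5% and 1631 bases.

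Of the 13 mtDNA mRNAs, 3 were called higher and 1 lower in NSG DTC than in NSG tumour libraries. Of all genes, 16.0% were called higher and 9.55% lower, so for so few mRNAs these counts are near the background. The 3 are well counted and belong to complex I, and the other is one of the 6 low ones. mt-Nd5 was at 561, 494, 519, 379 and 354 CPM in tumour and 883, 803, 1211, 882 and 1015 CPM in DTC libraries, with no overlap (1.06 ± 0.33, adjusted p = 0.0192). mt-Nd4 was at 551, 407, 442, 393 and 360 CPM and then at 808, 643, 975, 770 and 805 CPM (0.89 ± 0.25, adjusted p = 0.0101). mt-Co1, of complex IV, was at 7993 to 11142 CPM in tumour and 5378 to 9151 CPM in DTC libraries and was not called. The mt-Nd5 call was lost without NSG tumour replicate 4 or 5 or NSG DTC replicate 3 (adjusted p = 0.0517, 0.0544 and 0.0618), and the mt-Nd4 call without the 4 libraries with fewest genes detected (0.0532). With offsets for GC content and length, 0 of the 13 were called higher and 6 lower, mt-Nd5 stood at 0.04 and mt-Nd4 at -0.21 (adjusted p = 0.263). The NSG DTC libraries are the ones whose genes fell most with GC content.

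Cells in the lung at day 7 differed between hosts in most nuclear members. Of 82 nuclear members, 61 were called lower and 1 higher in NSG DTC than in BALB/c DTC libraries, where 17.1% of all genes were called lower and 21.7% higher. Their median log2 difference was -0.47, against 0.007 for all genes. By complex, 29 of 35 were lower in complex I, 2 of 4 in complex II, 7 of 9 in complex III, 10 of 17 in complex IV and 12 of 16 in complex V. The lung epithelial markers went the same way, with 9 of 9 called lower, and without the 2 BALB/c DTC libraries with most lung RNA 60 members were called lower and 2 higher. With offsets for GC content and length 49 were lower and 0 higher, and on TPM values 39 were lower and 4 higher with a median of -0.23. The departure of genes from their all-library mean rose with exonic length in NSG DTC libraries (Spearman's rho 0.083 to 0.253). In BALB/c DTC libraries it fell with length (-0.204 to -0.068). Tested nuclear members are short, with a median of 1631 exonic bases against 3662 for all tested genes. The part of length alone in this difference was not tested.

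Uqcr11 and Ndufa13 differed most among well expressed members. Uqcr11, a small subunit of complex III, was at 121, 115, 155, 151 and 94.5 CPM in BALB/c DTC and 64.9, 54.5, 56, 59.5 and 82.8 CPM in NSG DTC libraries (means 127 ± 25.3 and 63.5 ± 11.5 CPM, SD, adjusted p = 1.33e-05). Ndufa13, also known as GRIM-19 and an accessory subunit of complex I, was at 131, 133, 162, 155 and 96.9 CPM and at 78, 60.7, 66.4, 72.8 and 89.3 CPM (-0.88 ± 0.12, adjusted p = 1.85e-06). In both genes the lowest BALB/c library was replicate 5, and it still lay above all NSG libraries. Cyc1 was at 133 to 158 CPM in BALB/c DTC and at 90.6, 84.1, 65.8, 92 and 99.9 CPM in NSG DTC libraries (-0.74 ± 0.09, adjusted p = 4.94e-07), and with offsets for GC content and length at -0.20 (adjusted p = 0.0742). Cycs was at 97.9, 89.2, 116, 103 and 116 CPM in NSG DTC libraries, below the 134 to 179 CPM of BALB/c DTC (-0.58 ± 0.11, adjusted p = 0.000162). Further values were -0.78 ± 0.11 for Ndufs7, a core iron-sulfur subunit of complex I (adjusted p = 2.63e-06), -0.72 ± 0.10 for Atp5g2, a second c subunit gene (2e-06), and -0.54 ± 0.13 for Sdhb (0.000942), and these 3 calls were lost with the same offsets.

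**Figure D4:**
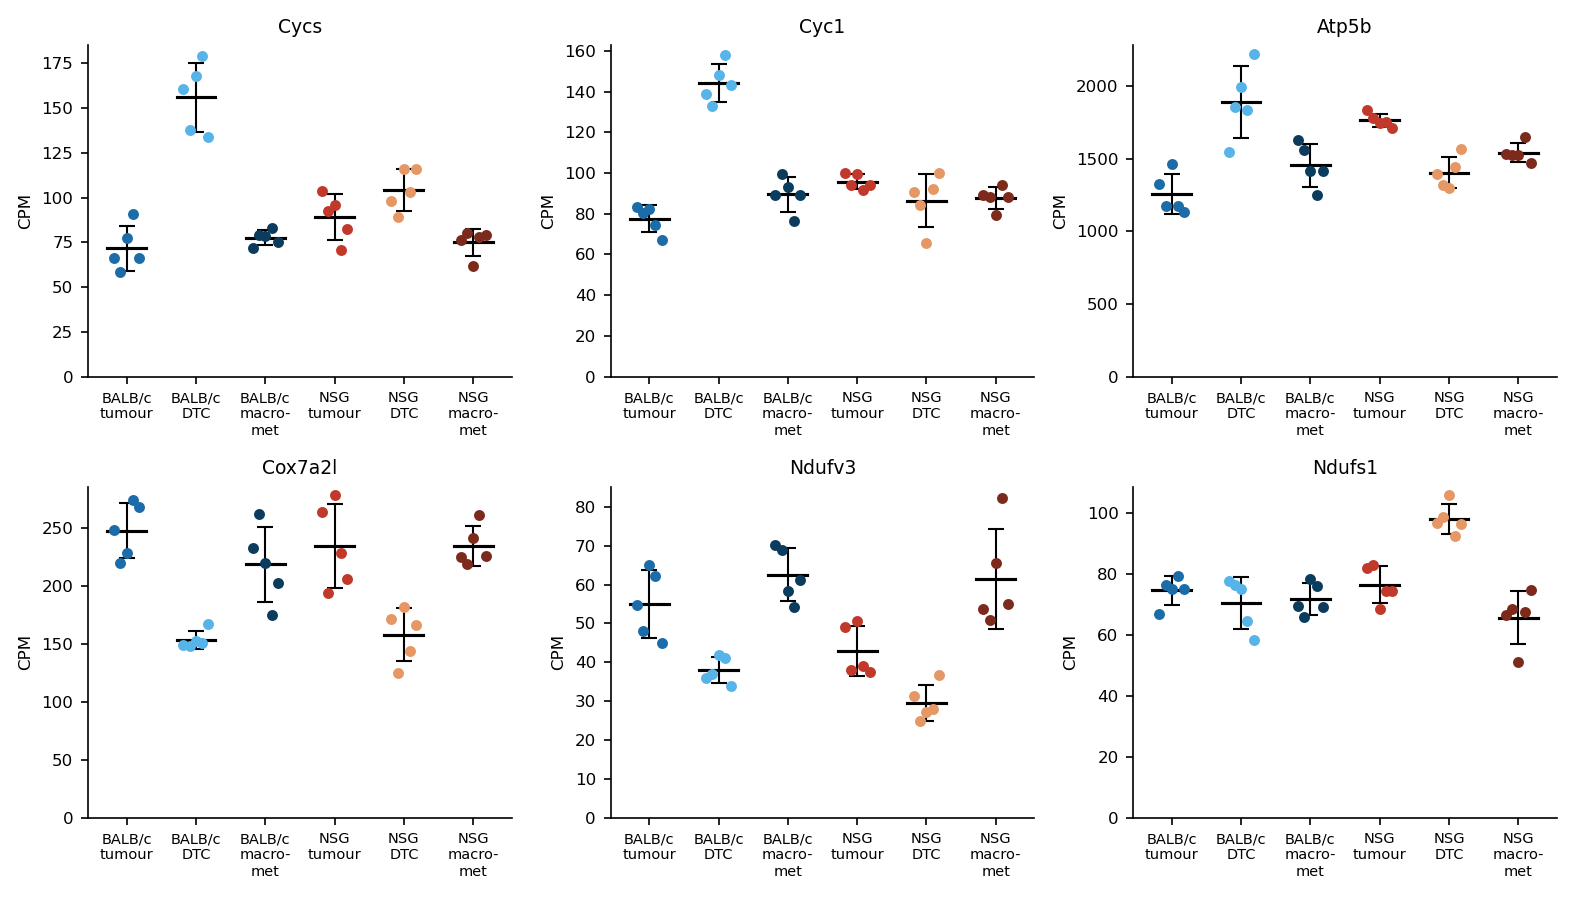
CPM of Cycs, Cyc1, Atp5b, Cox7a2l, Ndufv3 and Ndufs1, 1 point per library with mean ± SD (n = 5) in the 6 groups. Cycs, Cyc1 and Atp5b have their highest mean in BALB/c DTC libraries, Cox7a2l and Ndufv3 are low in DTC libraries of both hosts, and Ndufs1 is highest in NSG DTC libraries (92.6 to 106 CPM).

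The opposite sign held for Ndufs1 and for 3 mtDNA mRNAs in the comparison of DTC libraries. Ndufs1 was at 77.6, 76.4, 75, 64.5 and 58.3 CPM in BALB/c DTC libraries, below all NSG DTC libraries (0.48 ± 0.09, adjusted p = 0.000144). mt-Nd5 was at 554, 374, 469, 430 and 94.6 CPM in BALB/c DTC libraries (NSG minus BALB/c 1.32 ± 0.33, adjusted p = 0.0022), and mt-Nd4 at 602, 411, 480, 550 and 105 CPM (0.90 ± 0.26, adjusted p = 0.00574). In each, all NSG DTC libraries were higher, and BALB/c DTC replicate 5 was the lowest. With offsets for GC content and length, Ndufs1 was at -0.38 (adjusted p = 0.00979), mt-Nd4 at -0.30 (adjusted p = 0.0838), and 0 mtDNA mRNAs were called higher and 5 lower.

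The difference between hosts in the step from tumour to DTC was tested as an interaction, NSG step minus BALB/c step. It was called negative for 44 nuclear members and positive for 1, against 15.0% and 18.4% of all genes (33.4% in either direction), and positive for 6 mtDNA mRNAs and negative for 0. Terms were -1.04 ± 0.13 for Cyc1 (adjusted p = 1.45e-06), -0.92 ± 0.13 for Atp5b (4.04e-06) and -0.89 ± 0.16 for Cycs (9.81e-05). Ndufv1 and Uqcrc1 had the same value of -0.78, each with an SE of 0.15 (adjusted p = 0.000153 and 0.000118), and the alpha subunit gene Atp5a1 had -0.68 ± 0.12 (8.25e-05). Ndufs1 was the member with a positive term, 0.45 ± 0.13 (adjusted p = 0.0101). mt-Nd4 and mt-Nd2 had terms of 1.95 ± 0.36 (adjusted p = 0.000139) and 1.52 ± 0.33 (0.000647). With offsets for GC content and length, 38 nuclear members were called negative and 0 positive, the Ndufs1 term was -0.65 (adjusted p = 0.00233) and that of mt-Nd2 was -0.61 (adjusted p = 0.0215), and 0 mtDNA mRNAs were positive and 4 negative. On TPM values 22 nuclear members were called. Tumours were collected at other days in NSG than in BALB/c hosts, so this difference cannot be told apart from one of tumour day.

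From DTC to macro-met in BALB/c lungs, many nuclear members of complexes I, III, IV and V were called lower, and 1 of 4 of complex II. Of 82, 36 were called lower and 2 higher, where 14.2% of all genes were called lower and 16.6% higher (30.8% in either direction), and the median log2 fold change was -0.32 against -0.037 for all genes. Complex II had a median of -0.05. This comparison shares its BALB/c DTC libraries with that against tumours, so a high or low DTC level enters both. Those called lower were 13 in complex I, 1 in complex II, 5 in complex III, 8 in complex IV, 8 in complex V and Cycs. Cycs was at 72.1, 79, 78.8, 82.9 and 75.2 CPM in BALB/c macro-met libraries, close to tumours and below all DTC libraries (-1.01 ± 0.12, adjusted p = 7.91e-08). Cyc1 was at 89.4, 99.7, 92.9, 76.3 and 89.3 CPM, again below all DTC libraries (-0.69 ± 0.09, adjusted p = 1.2e-06). Cox6a1 fell from 383 to 487 CPM to 227 to 336 CPM (-0.62 ± 0.10, adjusted p = 1.98e-05), and Ndufa13 from 96.9 to 162 CPM to 69.6 to 93.3 CPM (-0.68 ± 0.12, adjusted p = 7.5e-05).

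The 2 genes called higher were Ndufv3 and Cox7a2l. Ndufv3 was at 70.1, 69, 58.4, 54.3 and 61.2 CPM in BALB/c macro-met libraries, above all DTC libraries (0.72 ± 0.13, adjusted p = 0.000113), and Cox7a2l at 233, 262, 220, 175 and 202 CPM (0.51 ± 0.11, adjusted p = 0.000677). Lung epithelial markers fell as well, with 8 of 9 called lower, and without the 2 DTC libraries with most lung RNA 39 nuclear members were called lower and 3 higher. Of the mtDNA mRNAs, 4 of 13 were called lower and 0 higher, against 14.2% and 16.6% of all genes, all 4 well counted and in complex I. mt-Nd2 was at 906, 750, 790, 971 and 206 CPM in DTC and 338, 285, 371, 328 and 348 CPM in macro-met libraries, so that DTC replicate 5 lay below every macro-met (-1.12 ± 0.23, adjusted p = 0.000497). Without the 2 DTC libraries with most lung RNA 1 of the 13 was called, and with limma on log2 values 1 was called too.

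In NSG lungs the same step brought fewer nuclear calls. Of 82 nuclear members 19 were called higher and 2 lower, against 21.3% and 22.4% of all genes, a share close to the background for those higher and far from it for those lower. The median log2 fold change was 0.14, against 0.025 for all genes, and 10 of the 19 were in complex I (of 35 tested), 2 in complex II, 4 in complex IV and 3 in complex V. Ndufv3 was at 53.7, 50.8, 65.6, 82.4 and 54.9 CPM in NSG macro-met libraries, all above the NSG DTC libraries (1.06 ± 0.14, adjusted p = 2.05e-07), and Cox7a2l at 225, 219, 241, 261 and 226 CPM (0.57 ± 0.11, adjusted p = 8.62e-05). Both genes thus stood lower in DTC libraries than in tumours and macro-mets of the same host. Ndufa8 rose by 0.42 and Ndufs3, a core subunit of complex I, by 0.38, and neither overlapped. The count rests in part on 1 library: without NSG macro-met replicate 4, 10 nuclear members were called, and without NSG DTC replicate 2, 11. On TPM values 8 were called higher and 6 lower.

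Both nuclear members called lower in NSG macro-mets than in NSG DTC libraries changed direction with offsets for GC content and length, which were fitted together. Ndufs1 was at 66.5, 68.6, 51, 67.5 and 74.6 CPM in macro-met libraries (-0.58 ± 0.10, adjusted p = 8.77e-06), and with offsets at 0.38 (adjusted p = 0.00743). Cycs was at 76.4, 80, 61.8, 77.9 and 79.2 CPM (-0.48 ± 0.11, adjusted p = 0.00105), and with offsets at 0.73 (adjusted p = 0.00024). In the deposited counts both were below all DTC libraries, so their direction here rests on whether the offsets are applied. Of the mtDNA mRNAs, 7 of 13 were called lower and 0 higher, against 22.4% and 21.3% of all genes, and 6 of those lower were well counted. mt-Nd5 was at 122, 118, 375, 129 and 174 CPM in macro-met libraries against 803 to 1211 CPM in DTC libraries (-2.38 ± 0.35, adjusted p = 2.28e-06), and mt-Nd4 at 154, 151, 242, 148 and 181 CPM against 643 to 975 CPM (-2.19 ± 0.26, adjusted p = 1.33e-07). mt-Cytb was at 1641, 1559, 1102, 1199 and 2128 CPM against 2751 to 4263 CPM (-1.26 ± 0.30, adjusted p = 0.00127). The groups of all 3 were apart, and NSG macro-met replicate 3 was the highest for mt-Nd5 and the lowest for mt-Cytb. With offsets, 4 mtDNA mRNAs were called higher and 2 lower, and mt-Cytb was at 0.33 (adjusted p = 0.163).

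Macro-mets were also set against tumours. In BALB/c hosts 8 of 82 nuclear members were called higher and 8 lower, against 19.6% and 18.2% of all genes, with a median of -0.04 against -0.031. The split moved with the scaling, to 5 higher and 15 lower with RLE size factors, 19 higher and 6 lower on TPM values and 13 higher and 14 lower with offsets for GC content and length. Sdhd, a membrane anchor of complex II, was at 81.6, 77.4, 74.5, 72.3 and 67.4 CPM in tumour and 113, 126, 114, 90.6 and 112 CPM in macro-met libraries (0.57 ± 0.11, adjusted p = 0.000168). Cox4i1, the broadly expressed subunit 4 of complex IV, was at 714, 698, 749, 829 and 692 CPM and at 652, 629, 555, 447 and 511 CPM (-0.40 ± 0.11, adjusted p = 0.00644). In both genes the groups did not overlap. Atp5a1 was at 0.37 ± 0.09 (adjusted p = 0.00116), a call lost with the offsets (0.18, adjusted p = 0.132). Uqcrh fell by 0.63 (SE 0.14, adjusted p = 0.000894) and Ndufa13 by 0.45 (SE 0.12, adjusted p = 0.00458). Of the mtDNA mRNAs 0 were called higher and 9 lower, among them all 7 well counted ones. mt-Nd2 was at 1131, 1407, 1292, 1181 and 1567 CPM in BALB/c tumour libraries and at 285 to 371 CPM in macro-mets (-1.98 ± 0.24, adjusted p = 4.92e-07), mt-Nd4 changed by -1.93 ± 0.26 (3.04e-06) and mt-Co1 by -1.24 ± 0.23 (0.000142). With the offsets 2 of the 13 were called lower, and mt-Co1 was at -0.20 (adjusted p = 0.251).

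In NSG hosts 1 nuclear member, Ndufv3, was called higher in macro-met than in tumour libraries and 3 lower, against 16.9% and 13.6% of all genes (30.5% in either direction). Ndufv3 was at 0.52 ± 0.13 (adjusted p = 0.00383), a call lost with offsets for GC content and length (0.28, adjusted p = 0.145). Those lower were Ndufa4, a subunit once placed in complex I and now in complex IV (-0.39 ± 0.15, adjusted p = 0.0463), Ndufa13 (-0.34 ± 0.12, adjusted p = 0.0325) and Atp5h, the d subunit of the ATP synthase stalk (-0.36). The Ndufa4 call was lost with no filter (adjusted p = 0.0672), on both TPM scales (0.0528 and 0.0503), with offsets (0.04, adjusted p = 0.891) and without NSG tumour replicate 1 or 3 or NSG macro-met replicate 2 or 3 (0.0501 to 0.0775). The Ndufa13 call was lost without NSG macro-met replicate 2 (0.0576) and without the 4 libraries with fewest genes detected (0.0823). DESeq2 called 1 higher and 6 lower, limma on TPM 10 higher and 2 lower, and the fit with offsets 4 higher and 13 lower. Of the mtDNA mRNAs 0 were called higher and 9 lower, 6 of them well counted. mt-Nd2 was at 917, 610, 635, 545 and 516 CPM in tumour and 243, 239, 282, 273 and 322 CPM in macro-met libraries, with no overlap (-1.25 ± 0.23, adjusted p = 0.000205), and mt-Nd4 changed by -1.30 ± 0.26 (adjusted p = 0.000388). With offsets 4 were called lower. For the difference between hosts in the step from tumour to macro-met, edgeR called 1 nuclear member, Atp5a1 (-0.43 ± 0.12, adjusted p = 0.0344), and 0 mtDNA mRNAs, where 5.23% of all genes were called (1.70% positive and 3.53% negative). At an unadjusted p under 0.05 there were 9 nuclear and 1 mtDNA members, and DESeq2 called 2 nuclear members. The Atp5a1 call was lost when any of 14 single libraries was left out.

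Tumours of the hosts differed in few nuclear members. In NSG tumours 11 of 82 nuclear members were called higher and 2 lower than in BALB/c tumours, against 12.6% and 11.0% of all genes, a share near the background for those higher and below it for those lower. The days of collection differed between these groups. The split was 8 higher and 5 lower with RLE size factors, 12 and 10 on TPM values and 18 and 0 with offsets for GC content and length. Atp5a1 was at 629, 572, 593, 520 and 525 CPM in BALB/c and 821, 807, 753, 801 and 794 CPM in NSG tumours (0.49 ± 0.09, adjusted p = 9.38e-05). Its partner in the catalytic head, Atp5b, differed by the same 0.49 ± 0.09 (adjusted p = 0.000152), and Sdhd by 0.51 ± 0.11 (adjusted p = 0.001). The groups of all 3 were apart. Uqcrfs1, the Rieske iron-sulfur protein of complex III, was higher by 0.46 ± 0.13 (adjusted p = 0.00723) and Cyc1 by 0.30 ± 0.09 (adjusted p = 0.0166), a call lost without BALB/c tumour replicate 5 (0.26, adjusted p = 0.0613). Of the mtDNA mRNAs 0 were called higher and 5 lower, 4 of them well counted, mt-Nd4 with -1.05 ± 0.26 (adjusted p = 0.00316) and mt-Nd2 with -1.03 ± 0.23 (adjusted p = 0.00159), and with offsets 0 were called.

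Macro-mets of the 2 hosts did not differ detectably in any member. By edgeR 0 of 82 nuclear and 0 of 13 mtDNA members were called, where 2.64% of all genes were (0.760% higher and 1.88% lower). At an unadjusted p under 0.05, 1 nuclear member was lower and 0 mtDNA mRNAs differed, and DESeq2, limma-voom and limma on TPM also called 0. Medians were 0.00 for nuclear and -0.30 for mtDNA members.

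The difference between hosts in the step from DTC to macro-met, which shares DTC libraries with the comparisons above, was called positive for 41 nuclear members and negative for 1, against 11.6% and 16.6% of all genes (28.1% in either direction). It was 0.73 ± 0.16 for Ndufs7 (adjusted p = 0.000858) and 0.72 ± 0.14 for Atp5g2 (0.000407), and both calls were lost with offsets for GC content and length (0.22, adjusted p = 0.384, and 0.27, adjusted p = 0.324). The single negative term was that of Ndufs1, -0.61 ± 0.13 (adjusted p = 0.00105), which stood at 0.37 with offsets (adjusted p = 0.115). Of the mtDNA mRNAs 2 were called negative and 0 positive, mt-Nd4 with -1.32 ± 0.36 (adjusted p = 0.00665), and with offsets 4 were positive and 0 negative and mt-Nd4 was at -0.05 (adjusted p = 0.891). The nuclear counts were 24 positive and 0 negative with offsets.

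**Figure D5:**
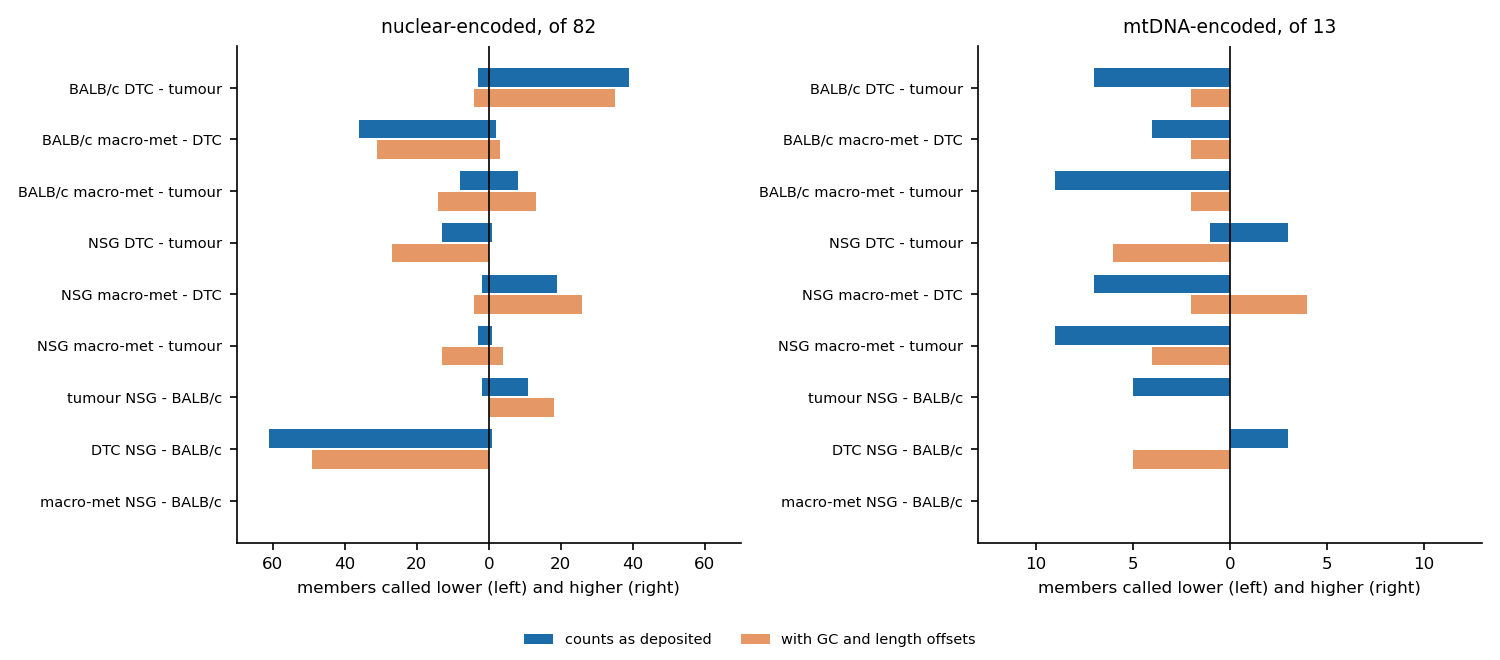
Number of members called lower (bars to the left) and higher (bars to the right) in 9 comparisons, as deposited and with offsets for GC content and length, for the 82 nuclear and the 13 mtDNA genes tested. Nuclear counts keep their main direction in BALB/c DTC minus BALB/c tumour (39 higher as deposited, 35 with offsets) and in NSG DTC minus BALB/c DTC (61 and 49 lower), while most mtDNA calls disappear or change side.

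Across all groups, the nuclear members with a median of group means of at least 8 CPM numbered 76. Of these, 57 had their highest mean CPM in BALB/c DTC libraries, and 39 had their lowest in NSG DTC, 17 in BALB/c tumour and 14 in NSG macro-met libraries. The shares of all genes with their highest or lowest mean in these groups were not computed, so these counts have no background. In summed TPM of the nuclear members the lowest mean was in BALB/c tumour and not in NSG DTC libraries. The ratio of the highest to the lowest group mean reached 2.17 for Cycs, 2.12 for Ndufv3, 2.00 for Uqcr11, 1.91 for Ndufb2, 1.86 for Cyc1 and 1.85 for Ndufa13. So the widest range of any well expressed nuclear member was about that of a doubling.

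Tissue-restricted isoforms were near 0. Cox6a2, the muscle isoform of Cox6a1, was at 7.63 CPM in BALB/c tumour replicate 4, the library with most skeletal muscle RNA, and at most 1.3 CPM elsewhere. Cox4i2, known from lung and from low oxygen, was at 2.86 CPM in BALB/c DTC replicate 1 and 1.07 CPM in replicate 2, the 2 libraries with most lung RNA, and at 1.1 CPM in NSG tumour replicate 2. Ndufa4l2, a hypoxia-induced relative of Ndufa4, reached 1.73 CPM, Cox7a1 1.05 CPM and Cox6b2, the testis isoform, 0.561 CPM, and Cox6b2 was at 0 in all BALB/c tumours. Cox7b2, Cox8b and Cox8c did not pass the filter. Of the nuclear members, 15 had an annotated pseudogene transcript of at least 97% identity over at least 100 bases. Only for Ndufa12 did the counts of such copies exceed 5% of the member's own (10.1%), and for Atp5g1 they came to 4.05%, so the level of Ndufa12 is uncertain to that extent.

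Genes that build, feed or regulate the chain were read from lists. From BALB/c tumour to BALB/c DTC, 5 of 14 complex I assembly factors were called higher and 1 lower, and 5 of 19 for complex IV were higher and 0 lower, where all genes had 20.4% higher and 21.0% lower. Ecsit, needed to assemble complex I, rose by 0.83 ± 0.11 (adjusted p = 1.22e-06) and Cox10, which makes the heme of complex IV, by 0.97 ± 0.15 (9.71e-06). Of 13 genes of the tricarboxylic acid cycle, which supplies NADH and succinate, 8 were higher and 1 lower (median 0.47). Ogdh rose by 0.91 ± 0.13 (adjusted p = 1.28e-06) and Mdh2 by 0.64 ± 0.09 (1.86e-06). Mitochondrial ribosomal proteins, which translate the mtDNA mRNAs, were called higher for 48 of 80 and lower for 2 (median 0.41), while those of cytosolic ribosomes were higher for 5 of 84 and lower for 19 (median -0.22). The shares called higher were thus near the background for complex IV assembly factors, and above it for the cycle and the mitochondrial ribosomal proteins. Of 12 regulators of mitochondrial biogenesis 3 were higher and 4 lower, again near the background. Among them Pprc1, a coactivator related to PGC-1, was at 1.05 ± 0.17 (adjusted p = 1.02e-05).

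Genes known to switch cells from respiration to glycolysis at low oxygen were low in DTC libraries of both hosts. Mean levels of Bnip3, a mitophagy receptor induced by hypoxia, were 54.0, 4.57 and 73.3 CPM in BALB/c tumour, DTC and macro-met libraries and 25.5, 6.26 and 74.5 CPM in NSG hosts. Those of Pdk1, which blocks pyruvate entry into the cycle, were 57.9, 15.5 and 92.3 CPM and 48.4, 17.4 and 73.8 CPM. Of the 10 genes of that list, 0 were called higher and 7 lower from tumour to DTC in each host, where 21.0% of all genes were lower in BALB/c and 9.55% in NSG hosts. Bnip3 fell by 3.56 (SE 0.33, adjusted p = 2.65e-09) in BALB/c and by 2.02 (SE 0.31, adjusted p = 2.95e-05) in NSG hosts, and Pdk1 by 1.90 (SE 0.20, adjusted p = 8.78e-09) and 1.48 (SE 0.20, adjusted p = 3.41e-06). From DTC to macro-met 9 of 10 were higher in BALB/c and 10 of 10 in NSG hosts, where 16.6% and 21.3% of all genes were, with Bnip3 up by 4.00 ± 0.34 (adjusted p = 6.02e-10) and 3.57 ± 0.33 (2.19e-09). All of these Bnip3 and Pdk1 calls held under every alternative.

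Between DTC libraries of the 2 hosts the same lists split. In NSG hosts, 6 of 14 complex I assembly factors and 8 of 19 for complex IV were called lower and 0 higher, where 17.1% of all genes were lower, and of mitochondrial ribosomal proteins 53 of 80 were lower and 1 higher (median -0.39). Ecsit was lower by 0.67 (-0.67 ± 0.11, adjusted p = 2.39e-05) and Cox10 was at -0.56 ± 0.15 (adjusted p = 0.00374), and both calls were lost with offsets for GC content and length. Cytosolic ribosomal proteins were lower for 70 of 84 and higher for 0 (median -0.53). Of 19 genes for copying, transcribing and handling mtDNA and its RNA, 5 were higher and 5 lower, near the 21.7% and 17.1% of all genes. Those higher were Pnpt1, which imports and degrades mitochondrial RNA (1.18 ± 0.24, adjusted p = 0.000201), Trmt10c (1.04 ± 0.21, 0.000205), Lrpprc, which stabilises mtDNA mRNAs (0.86 ± 0.21, 0.00158), Mtpap and Mterf3. Those lower were Elac2 (-0.46 ± 0.11, adjusted p = 0.00154), Polrmt (-0.53 ± 0.14, 0.00254), Slirp (-0.63 ± 0.17, 0.00303), Hsd17b10 and Twnk. The Pnpt1 and Lrpprc calls were lost with offsets, at 0.38 (adjusted p = 0.0609) and 0.35 (adjusted p = 0.114).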

How the data were processed

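RNA-seq of 30 libraries was deposited as a table of raw counts per gene and a table of TPM values (the authors' own, scaled by length and library). Per the submitters' processing notes, Trimmomatic 0.36 and STAR 2.5.2b were used with GRCm38/mm10. The counting tool, strand setting, annotation and the lengths behind the TPM values are not given in the sources used here. Libraries held 29832098 to 65621525 counts, and intervals from counting alone are not given because reads without molecular identifiers are not independent molecules.

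The 17774 of 49315 genes that passed filterByExpr (99.969% of counts) were fitted with edgeR 4.0.16 in R 4.3.3 (TMM scaling, robust quasi-likelihood test, 1 mean per group, 24 residual degrees of freedom; the biological coefficient of variation had a median of 0.275). Of 12 comparisons, 9 were between pairs of groups and 3 were interactions. P-values were adjusted over all tested genes by Benjamini-Hochberg, with a threshold of 0.05. CPM values are TMM-scaled, and errors are SD over 5 libraries or SE of a log2 fold change. The test was checked on simulated counts. GENCODE M21 gave positions, GC content, length and transcript sequences for 49056 IDs, and copies were found with BLAST 2.17.0. Plots and sums used Python 3.11.15 and pandas 2.3.3.

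Alternatives were RLE size factors, no filter, at least 1 CPM in 5 libraries, limma-voom, limma 3.58.1 on log2(TPM + 1) and log2(TPM + 0.1), no mtDNA genes in the table, offsets per library for GC content and length (splines of 5 degrees of freedom), DESeq2 1.42.0, only the libraries compared, and each library left out. Added after seeing the data were fits without the 4 libraries with fewest genes detected (BALB/c tumour 4, NSG tumour 2 and 3, NSG macro-met 3) and without the 2 with most lung RNA (BALB/c DTC 1 and 2).

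Named genes are all mtDNA mRNAs, a set of catalytic and isoform genes, up to 3 called members per complex, direction and comparison with the smallest adjusted p, the members with the largest changes, up to 3 called genes per list, and those with the widest range of group means. More genes were named from the list for copying, transcribing and handling mtDNA and its RNA. The members, lists and rule were chosen with earlier results of these data known. Numbers in the library titles did not recur between groups, so whatever they number cannot be told apart from group.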

Additional observations from a re-analysis of the deposited data

Results flagged for a closer look

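Of 36 sums of TPM per complex and group, 4 had a library far from the other 4 of its group, where chance gives about 1 in 20 groups such a library. In NSG DTC, nuclear complex II summed to 776 TPM in replicate 3 against 715 to 728 in the others. In BALB/c tumour, nuclear complex III summed to 2193 TPM in replicate 4 against 1659 to 1793, and that library also had the fewest genes detected and the most skeletal muscle RNA. The 7 well counted mtDNA mRNAs summed to 75838 TPM in BALB/c tumour replicate 5 against 42674 to 50658, and to 18129 TPM in BALB/c macro-met replicate 2 against 22443 to 23454.

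The hosts differed, by a test of the difference itself, in the step from tumour to DTC for 45 nuclear and 6 mtDNA members. Tested were 82 nuclear and 13 mtDNA members, and 33.4% of all genes were called. In the step from DTC to macro-met the hosts differed for 42 nuclear and 2 mtDNA members, against 28.1% of all genes. From tumour to macro-met they differed for 1 nuclear member, against 5.23% of all genes. The shares of these 2 mtDNA members and this 1 nuclear member lay below those of all genes. The DTC libraries enter the first and the second of these steps, so they are not independent of each other. Tumours of the 2 hosts were collected at different days, so host and tumour day cannot be told apart in the steps from tumour.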

How the results depend on the processing

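No paired analysis was possible because the labels give no replicate numbers that groups share. Of 131 gene results, the alternatives left 2952 values on the same side of the threshold and direction, moved 101 past it and turned 14, all 14 with offsets for GC content and length, for which the cause was not tested. The turned values were 0.17 (mt-Nd2, BALB/c DTC minus tumour); -0.29 and -0.21 (Ndufs1 and mt-Nd4, NSG DTC minus tumour); 0.38, 0.73 and 0.33 (Ndufs1, Cycs and mt-Cytb, NSG macro-met minus DTC); 0.04 (Ndufa4, NSG macro-met minus tumour); -0.38 and -0.30 (Ndufs1 and mt-Nd4, DTC between hosts). In the interaction of the DTC step they were -0.65, -0.16, -0.61 and -0.11 (Ndufs1, mt-Nd4, mt-Nd2 and Pnpt1), and 0.37 for Ndufs1 in that of DTC to macro-met. Limma on log2(TPM + 1) moved the median of all genes from 0.057 to 0.174 in NSG DTC minus tumour, from 0.007 to 0.150 in DTC between hosts, and from 0.029 to -0.152 in the DTC to macro-met interaction.

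Counts of nuclear members called that moved by over 1.5 times were as follows. BALB/c macro-met minus tumour (16) gave 25 and 26 on log2(TPM + 1) and log2(TPM + 0.1) and 27 with offsets. NSG DTC minus tumour (14) gave 5 on both TPM scales, 27 with offsets and 28 with only the libraries compared. NSG macro-met minus tumour (4) gave 8 with RLE, 11 with at least 1 CPM, 12 on both TPM scales, 8 without mtDNA genes, 17 with offsets, 7 with DESeq2, 15 with only the libraries compared and 9 without the lung-rich libraries. Tumours between hosts (13) gave 22 on both TPM scales. The DTC interaction (45) gave 22 and 21 on TPM, and that of DTC to macro-met (42) gave 18 and 19 on TPM and 24 with offsets. The interaction of tumour to macro-met (1) gave 0 with no filter or without the gene-poor libraries, 3 on log2(TPM + 1), and 2 with voom, log2(TPM + 0.1), offsets, DESeq2, only the libraries compared or no lung-rich libraries.

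For mtDNA mRNAs, BALB/c DTC minus tumour (7) gave 4 with no filter, 2 with offsets and 3 with only the libraries compared. BALB/c macro-met minus DTC (4) gave 1 with voom, on both TPM scales and without the lung-rich libraries, and 2 with offsets. Macro-met minus tumour (9 in each host) gave 2 in BALB/c and 4 in NSG hosts with offsets. NSG DTC minus tumour (4) gave 1 with no filter and 7 with only the libraries compared. Tumours between hosts (5) gave 2 with no filter or without the gene-poor libraries, 3 on both TPM scales and 0 with offsets. DTC between hosts (3) gave 5 with voom or offsets and 7 and 6 on TPM. The DTC to macro-met interaction (2) gave 1 with no filter, 7 with voom, 8 on both TPM scales, 4 with offsets and 5 without the lung-rich libraries, and that of tumour to macro-met (0) gave 1 with only the libraries compared.

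With each library left out in turn, nuclear counts ran from 32 to 44 in BALB/c DTC minus tumour, 32 to 42 in BALB/c macro-met minus DTC, 14 to 22 in BALB/c macro-met minus tumour, 8 to 27 in NSG DTC minus tumour, 10 to 26 in NSG macro-met minus DTC, 2 to 8 in NSG macro-met minus tumour (2 without NSG macro-met 2, 8 without NSG tumour 5), 8 to 15 in tumours (8 without NSG tumour 2 or 4), 54 to 64 in DTC and 0 in macro-mets between hosts. For the interactions they ran from 36 to 60, 27 (without NSG macro-met 4) to 45 and 0 to 2. For mtDNA mRNAs the ranges were 4 to 8, 2 to 6 (2 without BALB/c DTC 1, DTC 3 or macro-met 2), 7 to 9, 1 (without NSG DTC 3) to 3, 6 to 7, 7 to 9, 2 to 5 (2 or 3 without BALB/c tumour 2 or 5 or NSG tumour 2 to 5), 3 to 5 (5 without BALB/c DTC 1), 0, 5 to 7, 1 to 5 and 0 in the same order.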

Other observations

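Of genes that handle mitochondrial RNA, some changed between groups of NSG hosts. Mean levels of Lrpprc, which stabilises mtDNA mRNAs, were 56.2, 48.5 and 41.1 CPM in BALB/c tumour, DTC and macro-met libraries and 50.9, 88.1 and 31.0 CPM in NSG hosts. Those of Pnpt1 were 22.7, 19.2 and 14.4 CPM and 22.4, 43.4 and 9.92 CPM. From NSG tumour to NSG DTC, 5 of the 19 genes for copying, transcribing and handling mtDNA and its RNA were called higher and 1 lower (median 0.21), against 16.0% and 9.55% of all genes. Pnpt1 rose by 0.95 ± 0.24 (adjusted p = 0.00334), Fastkd2, an RNA-binding protein of mitochondrial RNA granules, by 0.87 ± 0.22 (0.00369) and Lrpprc by 0.79 ± 0.21 (0.00624). These 3 calls were lost with offsets for GC content and length, at 0.17 (adjusted p = 0.441), 0.04 (0.917) and 0.37 (0.0931). Hsd17b10 was the gene called lower, at -0.39 ± 0.10 (adjusted p = 0.00401). From NSG DTC to NSG macro-met 8 of the 19 were called lower and 0 higher (median -0.02), against 22.4% and 21.3% of all genes, with Pnpt1 at -2.13 ± 0.25 (adjusted p = 4.35e-08), Fastkd2 at -2.11 ± 0.23 (1.4e-08) and Lrpprc at -1.51 ± 0.22 (1.36e-06), and these calls held under every alternative.

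Cytosolic ribosomal protein genes, which have many pseudogenes that can share their reads, changed in both hosts. From NSG tumour to NSG DTC, 74 of 84 were called lower and 0 higher (median -0.48), against 9.55% and 16.0% of all genes, while of the mitochondrial ribosomal proteins 2 of 80 were called lower and 0 higher (median -0.09). From NSG DTC to NSG macro-met 51 of the 84 were called higher and 0 lower (median 0.34), against 21.3% and 22.4% of all genes, and of the mitochondrial ones 15 were higher and 7 lower (median 0.07). From BALB/c tumour to BALB/c macro-met, 44 of the 84 were called lower and 1 higher (median -0.33), against 18.2% and 19.6% of all genes, and from BALB/c DTC to macro-met 11 were lower and 0 higher (median -0.12), against 14.2% and 16.6%. In the step from BALB/c DTC to BALB/c macro-met, 38 mitochondrial ribosomal proteins were called lower and 2 higher (median -0.29), and the complex I assembly factor Ecsit fell by 0.51 (SE 0.11, adjusted p = 0.000868).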
